A study of Homo sapiens with 12 samples.

Results

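MYCN, its neighbours on chromosome 2 and the proteins that share its dimerization partner were followed through 12 arrays. The cells carry the label SK-N-SH, the name of a line grown from a neuroblastoma. The genes were MYCN, MYC and MYCL, which encode the MYC transcription factors, MAX, which encodes their partner, MXD1, MXD3, MXD4 and MNT, which encode rival partners of MAX, and DDX1 and NBAS, which lie beside MYCN. Every probe that the platform annotation assigned to 1 of these 10 genes was taken, giving 17 of the 47323 probes on the array.

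The arrays formed 4 groups of 3. DoxR-v was selected in stepwise rising doxorubicin with intermittent vorinostat, DoxR was selected in doxorubicin without vorinostat, WT-v received vorinostat without doxorubicin, and WT was the untreated parental line. Doxorubicin is an anthracycline that poisons topoisomerase II, and vorinostat (SAHA) inhibits histone deacetylases. Since a group is 1 line, what the treatment did and what arose by drift in that line cannot be told apart. The study speaks of triplicate RNA specimens and neither it nor the labels call the replicates separate cultures, so p-values measure only the spread between these samples, which may be technical.

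MYC proteins bind DNA as dimers with MAX, mostly at E-box sequences, and activate genes of ribosome production, nucleotide synthesis and cell division. MXD proteins and MNT also pair with MAX at E-boxes, and there they recruit repressors. In neuroblastoma MYCN is the family member most often amplified, usually in 1 stretch of DNA with DDX1 and sometimes NBAS, and it marks aggressive disease. SK-N-SH is known as a line without MYCN amplification, with MYC as its main family member, whereas the other line of the same study, SK-N-Be(2)C, is known to carry the amplification; its arrays were not analysed here.

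The label was checked first. A probe counted as detected at a detection p-value below 0.01 against the negative control probes of its array, and between 14969 and 17220 probes passed on each array. The brighter MYCN probe was detected on all 12 arrays, and its signal ranked between 3 and 74 among the detected probes of its array. The probes of MYC ranked at the bottom of the detected range or were not detected. These values go against what is known of SK-N-SH, so the cells are called by their label throughout and no line is assigned to them here. Adrenergic neuroblast markers were present: 10 genes were tested, and all 10 were detected on every array of DoxR-v, WT-v and WT. In DoxR 9 were, and TH, the first enzyme of catecholamine synthesis, was not detected. Of 8 mesenchymal markers 6 were tested, and the number detected on all 3 arrays of a group was 3 in DoxR-v, 4 in DoxR, 3 in WT-v and 3 in WT. FN1 and YAP1 were not detected on any array. Of the defining markers of leukocytes (PTPRC, CD3E), Schwann cells (SOX10, S100B) and epithelium (KRT8, KRT18, CDH1) that had probes, none was detected on any array. Each of these lists had 1 gene detected on some arrays (CD14 of 4 listed leukocyte genes, ERBB3 of 5 Schwann genes, EPCAM of 4 epithelial genes).

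Pairs of arrays correlated at r of 0.982 to 0.992 within groups and 0.936 to 0.971 between groups. WT replicate 3 had the highest level of its group for 9 of the 15 tested probes of the set, against 3 each for WT replicates 1 and 2, and it decided several of the calls given below. Other arrays stood out nearly as often: WT-v replicate 3 and DoxR replicate 1 were highest of their groups for 8 of the 15 probes. WT-v replicate 2 and DoxR-v replicate 3 were lowest of their groups for 8.

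**Figure D1:**
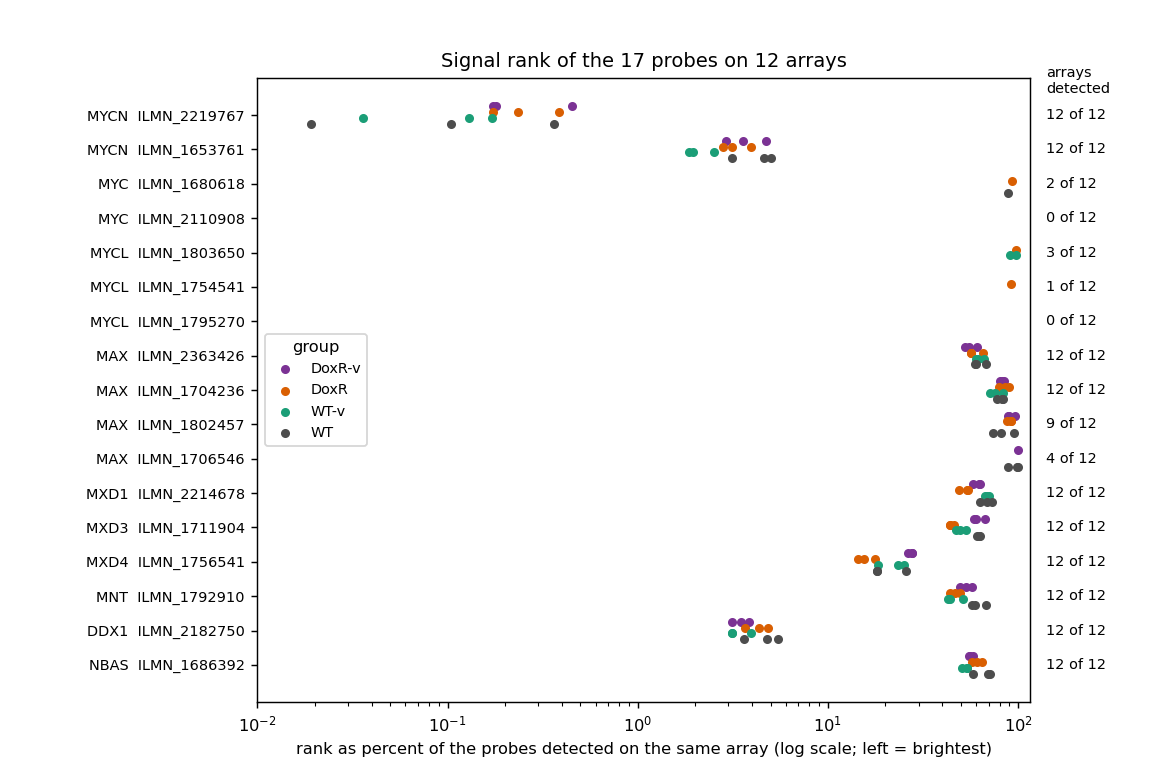
Signal rank of each of the 17 probes on each of the 12 arrays, as a percent of the probes detected on the same array (log scale, brightest at the left), with 1 point per array coloured by group and the number of arrays with detection at the right. The brighter MYCN probe lies between 0.0191% and 0.453%, both MYCN probes and DDX1 lie within the top 5.48%, and NBAS, MAX and the MXD genes lie further down.

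MYCN gave the brightest signals of the set. The brighter probe, ILMN_2219767, had non-normalized signals of 12201, 15684 and 14826 in DoxR-v, 13034, 11785 and 13902 in DoxR, 15715, 16638 and 15526 in WT-v, and 16622, 11948 and 14219 in WT. Its ranks among detected probes were 27, 30 and 74 in DoxR-v, 30, 63 and 36 in DoxR, 22, 6 and 28 in WT-v, and 17, 54 and 3 in WT. All DoxR ranks lay behind all WT-v ranks, and the other pairs of groups overlapped. By mean rank over the 12 arrays it took place 28 of all probes, and of the 50 probes with the best mean ranks 13 carried the symbol of a ribosomal protein gene or pseudogene. Probes differ in how well they bind their target, so a rank describes brightness and gives no order of transcript abundance.

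The second MYCN probe, ILMN_1653761, ranked between 305 and 776, which is the top 1.87% to 5.03% of detected probes. Both MYCN probes were thus near the top on every array. The 250 bases in front of the MYCN start are shown because this is the gene with the highest signal of the set, and they hold a match to the E2F motif TTTGGCGC, in capitals (GRCh38.p14, chr2:15940300-15940549, plus strand, RefSeq).
MYCN: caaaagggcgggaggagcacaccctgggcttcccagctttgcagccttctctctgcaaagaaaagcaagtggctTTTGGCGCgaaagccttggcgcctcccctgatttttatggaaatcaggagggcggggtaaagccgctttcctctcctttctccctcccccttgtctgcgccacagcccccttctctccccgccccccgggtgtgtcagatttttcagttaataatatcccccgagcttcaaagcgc
Both strands were searched over windows of 300 bases, and 0.652% of the 35116 promoters in the same RefSeq table held this motif. It did not occur in the promoters of the other 8 genes searched, and MYC was not searched.

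After quantile normalization the level of the brighter MYCN probe was nearly the same in the 4 groups. This method gives the top ranks of every array the same values. With ranks of 3 to 74 the probe was held to levels of 13.66 to 13.95, so its small spread is partly set by the method. Its non-normalized signals spanned 11785 to 16638. On the normalized log2 scale the probe averaged 13.75 ± 0.08 in DoxR-v, 13.75 ± 0.06 in DoxR, 13.85 ± 0.06 in WT-v and 13.84 ± 0.12 in WT (SD, n = 3 each), so that the group means spanned 0.09. It was not called in any comparison. The 95% intervals of its log2 difference were -0.33 to 0.16 for DoxR-v and for DoxR vs WT, -0.24 to 0.26 for WT-v vs WT, -0.25 to 0.25 for DoxR-v vs DoxR and -0.34 to 0.15 for DoxR-v vs WT-v. Its signal reached 79.3% to 98.3% of the brightest signal on the array, against 26.7% to 51.2% for the second probe. Whether such signals still follow the amount of transcript was not tested.

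The second MYCN probe differed between the groups. It read 12.52, 12.67 and 12.14 in DoxR-v, 12.67, 12.61 and 12.43 in DoxR, 13.03, 12.84 and 13.10 in WT-v, and 12.19, 12.18 and 12.65 in WT. All WT-v arrays lay above all other arrays. WT-v was 1.57-fold higher than WT (log2 0.65, SE 0.17, adjusted p = 0.0104, limma), and this call ended without WT replicate 1 or WT replicate 2 (log2 0.57 for each), where the fold fell below 1.5. For DoxR-v the log2 difference from WT was 0.11 (95% interval -0.26 to 0.48) and for DoxR 0.23 (-0.14 to 0.60). Against WT-v, DoxR-v differed by -0.54 (adjusted p = 0.0279, 1.46-fold), and this passed 1.5-fold without WT-v replicate 2 (-0.62) or DoxR-v replicate 2 (-0.66). The 2 probes therefore did not give the same picture of WT-v, and which of them follows the transcript was not tested.

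DDX1, which encodes an RNA helicase and is the nearest gene coding for a protein on the side of MYCN towards the end of the short arm, was also bright. It averaged 12.51 ± 0.11 in DoxR-v, 12.27 ± 0.10 in DoxR, 12.51 ± 0.13 in WT-v and 12.23 ± 0.23 in WT, with ranks of 521 to 821 over the 12 arrays (top 3.11% to 5.48%). NBAS, which encodes a protein of Golgi to endoplasmic reticulum transport and of mRNA decay, lies next to DDX1 and was of middling brightness. NBAS averaged 7.41 ± 0.14 in DoxR-v, 7.11 ± 0.02 in DoxR, 7.52 ± 0.17 in WT-v and 6.96 ± 0.40 in WT, and its ranks were 8329 to 11319 (top 51.0% to 71.2%).

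Neither neighbour was called in any comparison. For DDX1 the log2 difference was 0.28 (95% interval -0.02 to 0.58) in DoxR-v vs WT, 0.04 (-0.27 to 0.34) in DoxR vs WT and 0.28 (-0.03 to 0.58) in WT-v vs WT. For NBAS it was 0.45 (0.07 to 0.83) in DoxR-v vs WT, 0.15 (-0.23 to 0.53) in DoxR vs WT and 0.56 (0.17 to 0.94) in WT-v vs WT. The adjusted p of NBAS was 0.0727 in DoxR-v vs WT and 0.0281 in WT-v vs WT, with folds of 1.37 and 1.47 that missed the threshold of 1.5. WT replicate 3 read 7.41 for NBAS, against 6.62 and 6.86 in the other WT arrays, and without it NBAS was called higher in DoxR-v (log2 0.67) and in WT-v (log2 0.78) than in WT. In WT-v it was also called without WT-v replicate 1 (log2 0.63).

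**Figure D2:**
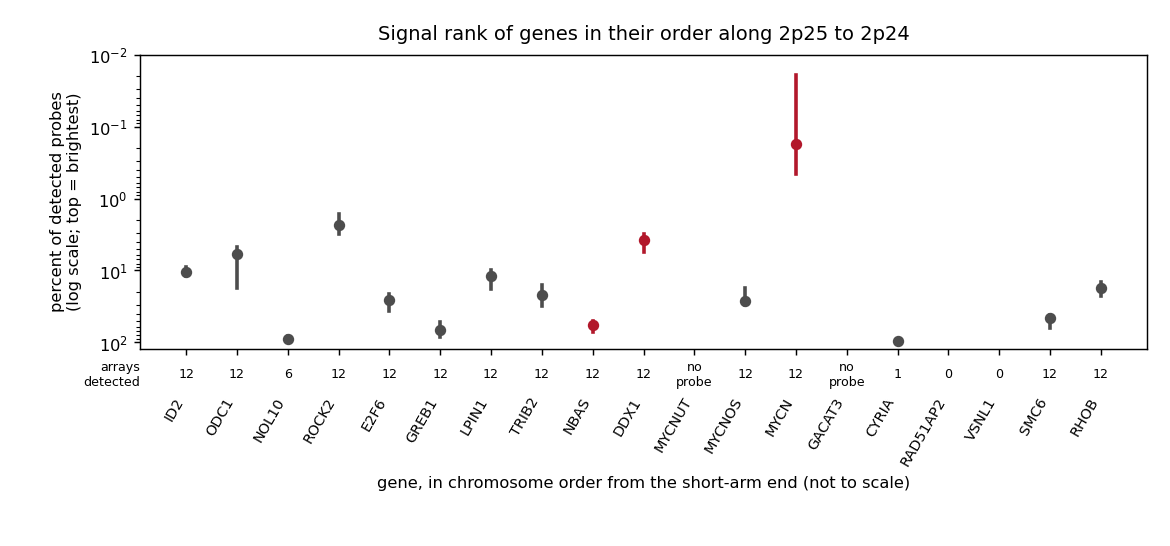
Signal rank of 19 genes in their order along the short arm of chromosome 2, as a percent of detected probes (log scale, brightest at the top), for the brightest probe of each gene. Points are medians and lines the range over the arrays on which the probe was detected, with that number of arrays under the axis; MYCN, DDX1 and NBAS are in red, and MYCN stands at a median of 0.174%.

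The wider neighbourhood showed no even brightness. The genes were placed by their order in the RefSeq annotation of GRCh38.p14. Next to MYCN, the antisense gene MYCNOS was detected on all 12 arrays (top 17.3% to 30.2%), and MYCNUT and GACAT3 had no named probe. MYCNOS overlaps MYCN on the opposite strand, and the strand that its probe reads was not examined, so its signal cannot be told apart from MYCN. Beyond MYCN, CYRIA was detected on 1 of 12 arrays, and RAD51AP2 and VSNL1 on none, while SMC6 (median 45.8%) and RHOB (17.6%) were detected on all 12. On the other side, NOL10 was detected on 6 of 12 arrays (median 89.7%), GREB1 had a median of 67.4%, TRIB2 of 22.1% and ROCK2, a kinase of the cytoskeleton, 2.36%. ODC1, which makes polyamines and is a well known MYC target, had a median of 5.93%.

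The MYCNOS probe, whose strand was not examined, was lower in DoxR than in WT (log2 -0.84, adjusted p = 0.00155) and lower in WT-v than in WT (log2 -0.63, adjusted p = 0.0121). The brighter and second MYCN probes differed by -0.09 and 0.23 in DoxR vs WT, and by 0.01 and 0.65 in WT-v vs WT. ODC1 was lower in DoxR than in WT (log2 -1.46, adjusted p = 1.25e-05) and higher in DoxR-v than in DoxR (log2 1.54, adjusted p = 8.78e-06). Of the 12 tested neighbours, 2 rose and 0 fell in DoxR-v vs WT, 1 rose and 4 fell in DoxR vs WT, 3 rose and 1 fell in WT-v vs WT, and 3 rose and 0 fell in DoxR-v vs DoxR. SMC6, a subunit of a chromosome maintenance complex, rose in each of DoxR-v, DoxR and WT-v relative to WT (log2 0.90, 0.80 and 0.62). Among all 12093 genes tested, 24.4% were called in DoxR-v vs WT, 33.1% in DoxR vs WT, 26.3% in WT-v vs WT and 28.2% in DoxR-v vs DoxR.

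MYC, the founding member of the family, was at or near background on these arrays. Its brighter probe, ILMN_1680618, had non-normalized signals of 82.1, 106.1 and 86.8 in DoxR-v, 105.5, 98.4 and 109.4 in DoxR, 98.6, 103.5 and 103.7 in WT-v, and 101.7, 90.3 and 114.5 in WT. The median probe of these arrays had signals of 86.9 to 107.5. The MYC probe was detected on DoxR replicate 1 and WT replicate 3 and on no other array, at ranks 15912 and 13962. The second MYC probe was not detected on any array, with signals of 78.1 to 97.8.

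The brighter MYC probe was called lower in DoxR-v than in DoxR (log2 -0.75, SE 0.24, adjusted p = 0.027) and lower in DoxR-v than in WT (log2 -0.64, adjusted p = 0.059). It was detected on 0 of 3 DoxR-v arrays, 1 of 3 DoxR arrays and 1 of 3 WT arrays, so both sides lay at the detection limit. The call against WT ended without WT replicate 3 (log2 -0.29), without DoxR-v replicate 1 (log2 -0.61) or without DoxR-v replicate 3 (log2 -0.54). Both calls ended without background correction (log2 -0.33 against DoxR and -0.30 against WT) and with the authors' normalized values (-0.14 and -0.13). MYCL, the third family member, was as dim: of its 3 probes 1 was detected on 3 of 12 arrays (WT-v replicates 1 and 3 and DoxR replicate 1), 1 on DoxR replicate 1 alone, and 1 on no array. Without WT replicate 3 MYC was called in the vorinostat contrast given below (log2 -0.69), and without WT replicate 1 it was called lower in WT-v than in WT (log2 -0.61). No MYCL probe was called in any comparison with all arrays, and without WT-v replicate 2 ILMN_1803650 was called higher in WT-v than in WT (log2 0.61).

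MAX, the shared partner, had 4 probes that did not move together. The brightest, ILMN_2363426, was detected on all arrays and read 7.28, 7.35 and 7.60 in DoxR-v, 7.19, 7.37 and 7.05 in DoxR, 7.01, 6.74 and 7.05 in WT-v, and 7.17, 7.02 and 7.35 in WT. It was not called in any comparison, and its widest difference was DoxR-v over WT-v (log2 0.48, 95% interval 0.16 to 0.79, adjusted p = 0.0247, 1.39-fold). ILMN_1704236 was detected on all arrays as well and was not called.

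The 2 dimmer MAX probes were called in WT-v. ILMN_1802457 read 5.54, 5.54 and 5.65 in DoxR-v, 5.54, 5.53 and 5.76 in DoxR, 4.86, 5.08 and 4.99 in WT-v, and 6.40, 6.36 and 5.57 in WT. It was not detected on any WT-v array and was at least 1.85-fold lower in WT-v than in WT (adjusted p = 0.000653), a bound for which a dim array was given the lowest level detected on it, or the probe's own level where that was higher. Against WT-v it was at least 1.28-fold higher in DoxR-v (adjusted p = 0.0298), a call that ended without WT-v replicate 1 (log2 0.54) or DoxR-v replicate 3 (log2 0.56). ILMN_1706546 was detected on 1 of 3 DoxR-v arrays, on 0 of 3 DoxR and WT-v arrays and on all 3 WT arrays. It was at least 1.23-fold lower in DoxR (adjusted p = 0.00243) and at least 1.28-fold lower in WT-v (adjusted p = 0.00112) than in WT. Without WT replicate 3, ILMN_1802457 was called lower than in WT in DoxR-v (log2 -0.80) and DoxR (log2 -0.77), and ILMN_1706546 was called lower in DoxR-v than in WT without WT replicate 1 (log2 -0.62) or DoxR-v replicate 3 (log2 -0.60). In WT-v vs WT both calls ended without background correction (log2 -0.46 for ILMN_1802457 and -0.37 for ILMN_1706546) and with the authors' normalized values (-0.23 and -0.17). So did the call of ILMN_1706546 in DoxR vs WT (-0.30 and -0.14) and that of ILMN_1802457 in DoxR-v vs WT-v (0.21 and 0.10). The MAX transcript forms that these probes read were not tested.

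**Figure D3:**
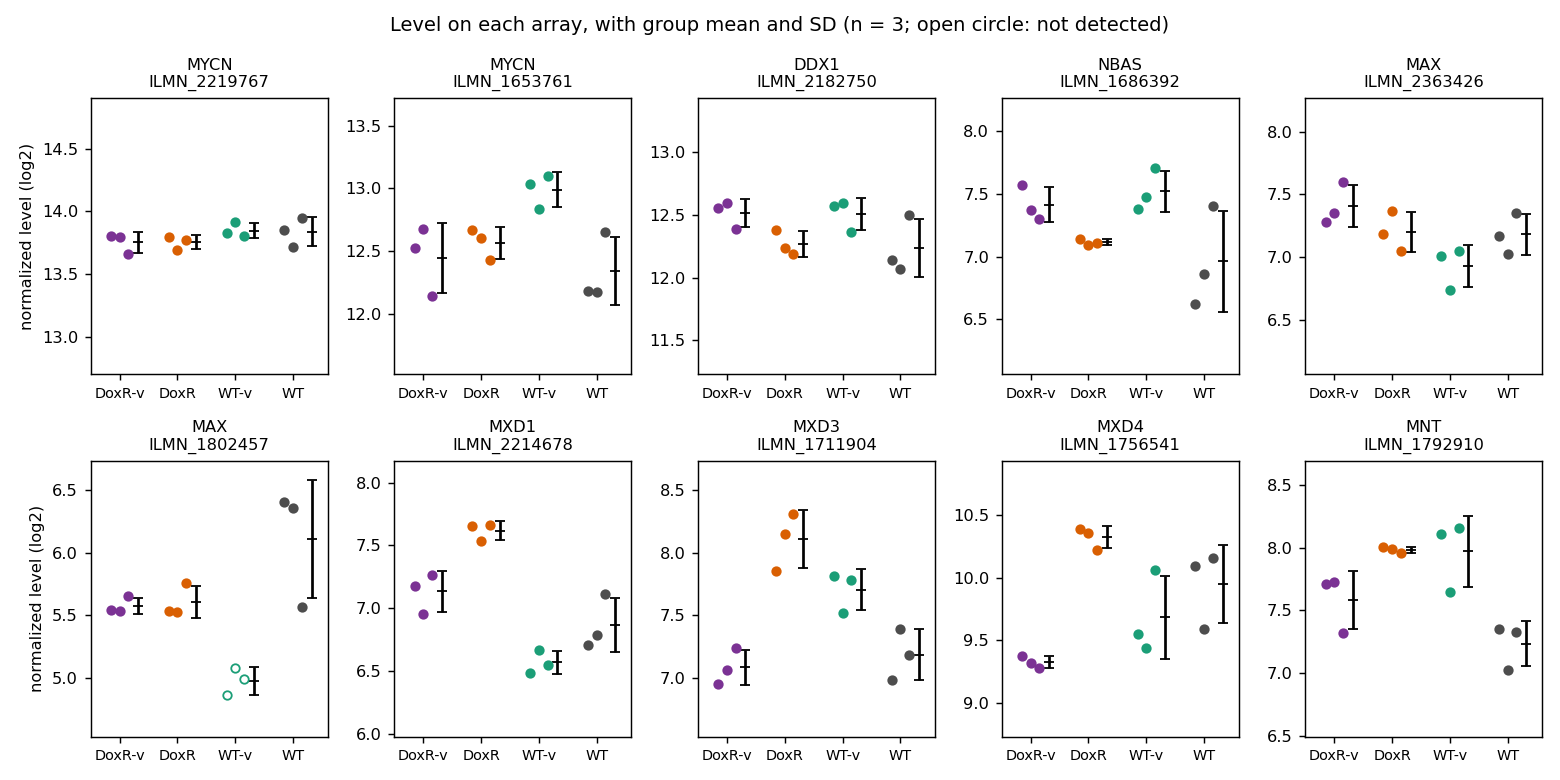
Normalized log2 level of 10 probes on each array, in the order DoxR-v, DoxR, WT-v and WT, with the group mean and SD beside the points (n = 3); every panel spans the same height of 2.2 log2 units and open circles are arrays on which the probe was not detected. MXD3 and MXD4 are highest in DoxR, at means of 8.10 and 10.32, and the brighter MYCN probe is flat.

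The MXD genes and MNT encode the repressive partners of MAX, and their probes were detected on all 12 arrays. MXD3, whose protein is found in dividing cells, read 6.96, 7.06 and 7.24 in DoxR-v, 7.85, 8.15 and 8.31 in DoxR, 7.82, 7.52 and 7.78 in WT-v, and 6.99, 7.39 and 7.18 in WT. All DoxR arrays lay above all arrays of the other groups, and DoxR-v and WT overlapped. MXD3 was 1.89-fold higher in DoxR than in WT (log2 0.92, SE 0.16, adjusted p = 0.000449). It was 2.03-fold lower in DoxR-v than in DoxR (log2 -1.02, adjusted p = 0.00023) and lower in DoxR-v than in WT-v (log2 -0.62, adjusted p = 0.00936). With the authors' normalized values the differences from WT in DoxR (log2 0.48) and from DoxR in DoxR-v (log2 -0.52) were below 1.5-fold. The call against WT-v ended without WT-v replicate 1, WT-v replicate 3 or DoxR-v replicate 1 (log2 -0.56, -0.58 and -0.55). That call also ended without background correction (log2 -0.43) and with the authors' normalized values (log2 -0.29). In WT-v the log2 difference from WT was 0.52 (adjusted p = 0.0225, 1.43-fold), which missed the fold threshold, and it passed without WT replicate 2 (log2 0.62) or WT-v replicate 2 (log2 0.61).

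MXD4, whose protein is best known from differentiating cells, was the brightest of these genes. It read 9.38, 9.32 and 9.28 in DoxR-v, 10.39, 10.36 and 10.22 in DoxR, 9.55, 9.44 and 10.06 in WT-v, and 10.09, 9.59 and 10.16 in WT. The DoxR arrays were again above and the DoxR-v arrays below all others. MXD4 was 1.99-fold lower in DoxR-v than in DoxR (log2 -0.995, SE 0.18, adjusted p = 0.00077) and 1.54-fold lower in DoxR-v than in WT (log2 -0.62, adjusted p = 0.0188). The call against WT ended without WT replicate 1 (log2 -0.55) or WT replicate 3 (log2 -0.51), without background correction (log2 -0.57) and with the authors' normalized values (log2 -0.53). Its log2 difference in DoxR vs WT was 0.37 (95% interval -0.01 to 0.76).

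MXD1, the first described of these repressors, read 7.18, 6.95 and 7.27 in DoxR-v, 7.65, 7.53 and 7.66 in DoxR, 6.49, 6.67 and 6.55 in WT-v, and 6.71, 6.78 and 7.11 in WT. The DoxR arrays lay above all others and the WT-v arrays below all others. MXD1 was 1.68-fold higher in DoxR than in WT (log2 0.75, SE 0.14, adjusted p = 0.000803). This call ended without background correction (log2 0.50) and with the authors' normalized values (log2 0.33). DoxR-v lay between them, with a log2 difference of -0.48 from DoxR (adjusted p = 0.0156, 1.40-fold) and 0.27 from WT (adjusted p = 0.169). Against WT-v the log2 difference of DoxR-v was 0.57 (adjusted p = 0.00759, 1.48-fold), and it passed 1.5-fold without WT-v replicate 2 (0.62) or DoxR-v replicate 2 (0.66).

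MNT, a widely expressed repressor that competes with MYC for MAX, read 7.71, 7.73 and 7.32 in DoxR-v, 8.0, 7.99 and 7.95 in DoxR, 8.11, 7.65 and 8.16 in WT-v, and 7.35, 7.03 and 7.33 in WT. It was 1.68-fold higher in DoxR (log2 0.75, SE 0.16, adjusted p = 0.00277) and 1.67-fold higher in WT-v (log2 0.74, adjusted p = 0.00408) than in WT. Both calls ended without background correction (log2 0.54 in each) and with the authors' normalized values (log2 0.38 in each). In DoxR-v the log2 difference from WT was 0.35 (95% interval -0.00 to 0.71, adjusted p = 0.126). The DoxR and WT-v arrays overlapped, so the order of these groups was not resolved.

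The promoters of MXD4 and MNT are shown because, of the 10 promoters searched for 9 of the genes, these 2 held the E-box CACGTG, the sequence that MYC and MAX dimers bind, in capitals. The 250 bases before each start are given (GRCh38.p14, minus strand, RefSeq; MXD4 chr4:2262110-2262359, MNT chr17:2401061-2401310).
MXD4: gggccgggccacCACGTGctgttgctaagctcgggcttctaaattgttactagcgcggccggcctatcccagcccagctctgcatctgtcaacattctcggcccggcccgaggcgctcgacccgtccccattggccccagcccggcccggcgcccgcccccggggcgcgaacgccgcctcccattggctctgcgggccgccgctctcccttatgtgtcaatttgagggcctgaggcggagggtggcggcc
MNT: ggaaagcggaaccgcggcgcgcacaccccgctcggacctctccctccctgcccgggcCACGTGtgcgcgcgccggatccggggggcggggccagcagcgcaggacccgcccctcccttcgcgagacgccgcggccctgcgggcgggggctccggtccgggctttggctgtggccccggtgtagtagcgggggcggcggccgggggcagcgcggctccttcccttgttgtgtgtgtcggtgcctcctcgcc
On both strands, over windows of 300 bases, 7.26% of the 35116 promoters held this E-box. A match describes the letters only, and binding was not measured. In DoxR-v vs DoxR the log2 difference was -0.995 for MXD4 and -0.40 for MNT, and in DoxR vs WT it was 0.37 for MXD4 and 0.75 for MNT; whether the genes differed in response was not tested.

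**Figure D4:**
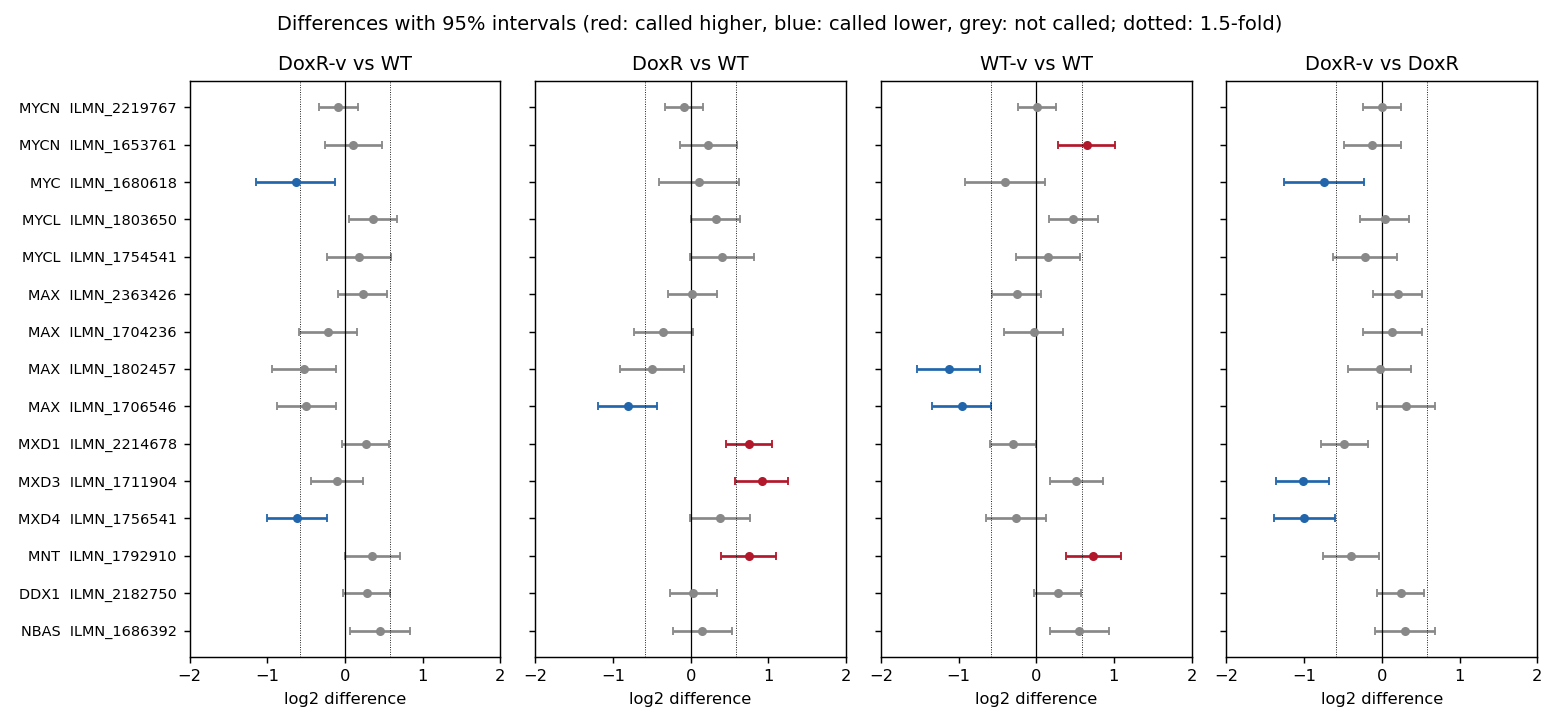
Log2 differences of the 15 tested probes with 95% intervals in 4 comparisons (DoxR-v, DoxR and WT-v each against WT, and DoxR-v against DoxR); red points were called higher, blue lower and grey not called, and dotted lines mark 1.5-fold. MXD1, MXD3 and MNT stand to the right in DoxR vs WT, and MXD3, MXD4 and MYC to the left in DoxR-v vs DoxR.

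Over the whole set, 15 of the 17 probes were detected on at least 1 array and could be tested, and 10 of them were detected on all 12. Calls needed a fold above 1.5 together with an adjusted p below 0.1 over all 21609 tested probes. In DoxR-v vs WT 2 probes were called, both lower, when 22.3% of all tested probes were called (11.4% higher, 10.9% lower). In DoxR vs WT 4 were called (3 higher, 1 lower) against 29.7% of all (15.2% higher, 14.5% lower). In WT-v vs WT 4 were called (2 higher, 2 lower) against 24.8% (13.2% higher, 11.6% lower). In DoxR-v vs DoxR 3 were called, all lower, against 24.9% (12.6% higher, 12.3% lower). In DoxR-v vs WT-v 2 were called (1 higher, 1 lower) against 22.3% (10.9% higher, 11.3% lower). These counts were near or below the shares of all probes, and nothing particular to the set is read from them. Groups did not overlap for 4 of the 15 probes in DoxR-v vs WT, 6 in DoxR vs WT, 7 in WT-v vs WT, 7 in DoxR-v vs DoxR and 7 in DoxR-v vs WT-v, when 41.1%, 49.8%, 41.6%, 49.7% and 43.9% of all tested probes did not.

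Which probes were called in DoxR-v vs WT depended on how the arrays were scaled. With median scaling in place of quantile normalization, the median probe shifted by 0.26 in DoxR-v vs WT, 0.13 in DoxR vs WT, 0.24 in WT-v vs WT, 0.10 in DoxR-v vs DoxR and -0.14 in the vorinostat contrast between resistant and parental cells (log2). Among all calls in DoxR-v vs WT the share that was higher was 51% with quantile normalization and 87.2% with median scaling. The same shares were 51.2% and 73.1% in DoxR vs WT, 53.3% and 84.8% in WT-v vs WT, 50.6% and 65.8% in DoxR-v vs DoxR, and 48% and 35.1% in the vorinostat contrast. Within the set, the 4 calls of DoxR-v vs WT under median scaling were all higher, namely MNT (log2 0.83), MXD1 (0.74), NBAS (0.93) and the brightest MAX probe (0.71). The calls of MXD4 (log2 -0.23) and MYC (log2 -0.57) were lost there, and no called value turned its sign. Median scaling also called MXD4 higher in DoxR than in WT (log2 0.59), MXD3 (0.96) and NBAS (0.99) higher in WT-v than in WT, and MXD1 higher in DoxR-v than in WT-v (0.61), and it lost the call of MXD3 in DoxR-v vs WT-v (-0.57).

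The vorinostat difference among resistant cells (DoxR-v minus DoxR) was set against that among parental cells (WT-v minus WT). In this contrast 6 of the 15 probes were called (2 higher, 4 lower), when 38.3% of all tested probes were (18.4% higher, 19.9% lower). MXD3 was 1.02 lower in DoxR-v than in DoxR and 0.52 higher in WT-v than in WT, a gap of -1.54 on the log2 scale (SE 0.22, adjusted p = 0.000158). MNT had a gap of -1.13 (adjusted p = 0.00204) and MXD4 of -0.73 (adjusted p = 0.0369). The call of MXD4 ended without WT replicate 2 (log2 -0.56) or WT-v replicate 3 (log2 -0.55). The second MYCN probe had a gap of -0.77 (adjusted p = 0.0229), while that of the brighter MYCN probe was -0.01 (95% interval -0.36 to 0.34). The dimmer MAX probes ILMN_1802457 and ILMN_1706546 had gaps of 1.099 (adjusted p = 0.00606) and 1.27 (adjusted p = 0.00142). Both calls ended without background correction (log2 0.45 and 0.49) and with the authors' normalized values (log2 0.22 for each).

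Among the other proteins of the MAX network, 3 of 5 genes could be tested. MXI1, a further repressive partner of MAX, was lower than in WT in DoxR-v (log2 -0.97, adjusted p = 0.00217), in DoxR (-0.74, 0.00815) and in WT-v (-0.99, 0.00175). MLX, which pairs with MXD and glucose-sensing proteins in place of MAX, was lower in DoxR than in WT (log2 -0.91, adjusted p = 0.000148) and higher in DoxR-v than in DoxR (log2 1.29, adjusted p = 8.58e-06). MGA, a large MAX partner, was higher in DoxR than in WT (log2 0.60, adjusted p = 0.0153) and lower in DoxR-v than in DoxR (log2 -0.66, adjusted p = 0.0102). MXI1 was thus lower than in WT in all 3 treated groups. Its probe was dim, with group means of 5.82 to 6.80. Results under other processing are not given for the genes of this list or of the lists below.

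Genes known to be induced by MYC or MYCN were called in different numbers. Of 29 tested, 7 rose and 1 fell in DoxR-v vs WT, where 12.6% of all genes rose and 11.8% fell. In DoxR vs WT 2 rose and 2 fell (17.1% and 16% of all genes), and in WT-v vs WT 5 rose and 2 fell (14% and 12.3% of all genes). The list medians were 0.27, 0.15 and 0.41 on the log2 scale in these comparisons, where the medians of all genes were 0.02, 0.01 and 0.03. CAD, which starts pyrimidine synthesis, rose in DoxR-v (log2 0.76), in DoxR (1.05) and in WT-v (1.12), each relative to WT. PES1, a factor of ribosome assembly, fell in the same comparisons (log2 -0.62, -1.46 and -0.62). NME1, a nucleoside diphosphate kinase gene and close MYCN target, ranked as high as the top 0.251% of detected probes on its best array and was not called.

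Genes known to be repressed by MYC or MYCN moved in both directions. Of 10 tested, 2 rose and 4 fell in DoxR-v vs WT, 3 rose and 4 fell in DoxR vs WT, and 1 rose and 5 fell in WT-v vs WT, with list medians of -0.13, -0.11 and -0.50. The shares of all genes called in these comparisons were 24.4%, 33.1% and 26.3%. CDKN1A (p21), a brake on the cell cycle, averaged 9.02 in DoxR-v, 5.95 in DoxR, 5.76 in WT-v and 10.23 in WT, and was lower than in WT in each (log2 -1.21, -4.28 and -4.47). NDRG1 was lower than in WT in 2 of the groups, with a log2 difference of -2.89 in DoxR-v, where 1 of 3 arrays detected it, and at least 5.68-fold in WT-v, where none did. In DoxR all 10 tested genes of this list, NDRG1 among them, were detected on all 3 arrays. DKK1, a secreted WNT inhibitor, was higher than in WT in DoxR-v (log2 2.05), DoxR (3.07) and WT-v (1.59).

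Genes that bind, stabilize or degrade MYC proteins formed the next list. Of 22 tested, 5 rose and 3 fell in DoxR-v vs WT, 6 rose and 6 fell in DoxR vs WT, 6 rose and 1 fell in WT-v vs WT, and 4 rose and 1 fell in DoxR-v vs DoxR, against 24.4%, 33.1%, 26.3% and 28.2% of all genes called in either direction. AURKA, a kinase known to protect MYCN from breakdown, was higher in DoxR-v (log2 0.68, adjusted p = 0.000826) and in WT-v (log2 0.67, adjusted p = 0.000874) than in WT, and higher in DoxR-v than in DoxR (log2 1.09, adjusted p = 1.17e-05). In DoxR the log2 difference of AURKA from WT was -0.41 (adjusted p = 0.0148, limma), which missed the fold threshold. FBXW7, part of a ubiquitin ligase that marks MYCN for breakdown, was lower in DoxR than in WT (log2 -0.81, adjusted p = 0.000245), and so was the kinase GSK3B (log2 -1.17, adjusted p = 2.09e-05). USP7 was lower in DoxR than in WT as well (log2 -0.90). PIM2 was lower than in WT in DoxR-v (log2 -0.64), DoxR (-0.97) and WT-v (-0.91). PIM1 was higher than in WT in DoxR (log2 0.63) and WT-v (0.91). LIN28B, which blocks let-7 miRNAs and thereby favours MYCN, averaged 9.01 in DoxR-v, 9.67 in DoxR, 11.16 in WT-v and 11.07 in WT. It fell in DoxR-v (log2 -2.06) and DoxR (log2 -1.40), with 0.08 in WT-v (adjusted p = 0.701).

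The groups also differed in markers of neuroblastoma cell states, whose part in the differences above was not tested. The summed level of the 6 tested mesenchymal markers was 3744 to 5355 in DoxR-v, 10467 to 11600 in DoxR, 3431 to 3982 in WT-v and 852 to 960 in WT. Of the 6, 2 rose and 1 fell in DoxR-v vs WT, 4 rose and 0 fell in DoxR vs WT, and 4 rose and 1 fell in WT-v vs WT, where 24.4%, 33.1% and 26.3% of all genes were called. The median log2 difference of the 6 was -0.03, 2.75 and 1.10 in these comparisons, so that in DoxR-v the higher sum was not shared by the typical marker. VIM, an intermediate filament of mesenchymal cells, was higher than in WT in each (log2 2.22, 4.05 and 2.61). The summed level of the 10 adrenergic markers was 47679 to 55096 in DoxR-v, 37528 to 38545 in DoxR, 53587 to 57935 in WT-v and 44613 to 51047 in WT. These sums are carried by the brightest genes: in DoxR-v vs DoxR 2 adrenergic markers rose and 1 fell, with a median log2 difference of -0.23 over the 10. In that comparison 14.3% of all genes rose and 13.9% fell. In bulk RNA, a larger share of cells of a state and more RNA per cell cannot be told apart.

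The genes whose pattern was closest to the brighter MYCN probe over the 12 arrays were MAN1A1 (r = 0.81), KCNIP4 (0.76), MANEA (2 probes, 0.76 and 0.73) and MB21D2 (0.71). They were taken from 4578 probes whose group means spanned at least 1 on the log2 scale, while the MYCN probe spanned 0.09. For the brighter MYC probe they were TMEM185A (0.89), CUL4B (0.85), NOMO1 (0.85), MITF (0.85) and ATP7A (0.85). The arrays share 4 groups and 1 normalization, and the values are descriptions.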

How the data were processed

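RNA of 12 samples was measured on Illumina HumanHT-12 v4 BeadChips. The authors deposited the linear intensity of every probe before normalization, with a detection p-value per probe and array. The authors also deposited normalized intensity values, for which the submitters' processing notes name lumi 2.13.3 and R 3.0.1, and these served as an alternative.

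From the non-normalized values, background was removed by the normexp method of limma 3.58.1 (R 4.3.3), with the background taken from the detection p-values and an offset of 16, followed by quantile normalization and log2. Testing was limited to the 21609 of 47323 probes that were detected (p-value below 0.01) on 1 array or more. The limma model held the 4 group means and used all 12 arrays, with moderated standard errors, and p-values were adjusted by Benjamini and Hochberg over the tested probes. A call needed an adjusted p below 0.1 and a fold above 1.5, as in the study. The fit was tested on simulated data. The number of arrays, 3 a group, limits the precision.

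Probes were named through the platform annotation: 30113 had 1 gene symbol, 8 several and 17202 none. Each listed gene was read from 1 probe, the brightest on average of those tested, and all probes of the 10 genes are given. Genes of the lists were chosen for naming where their adjusted p was among the 4 smallest of the list in a comparison, or where 5 or fewer were called. Not every gene that met this rule is named. Genes near MYCN on chromosome 2, such as ROCK2, were also named for their brightness or detection. The members and the lists were chosen with earlier results of these data known. Alternatives were median scaling, no background correction, the authors' normalized values, other filters and thresholds, fits on the groups compared, the replicate number as a block and leaving out each array. Their results are given for the probes of the set, and none are given for single genes of the lists. No batch could be tested, since the files give no slide or scan date.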

Additional observations from a re-analysis of the deposited data

Results flagged for a closer look

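For 6 probes the vorinostat difference among resistant cells (DoxR-v minus DoxR) differed from that among parental cells (WT-v minus WT) by a test of the interaction term in limma. MXD3 had a gap of -1.54 on the log2 scale, MNT of -1.13 and MXD4 of -0.73. The second MYCN probe, ILMN_1653761, had a gap of -0.77, and the MAX probes ILMN_1802457 and ILMN_1706546 had gaps of 1.099 and 1.27, which fell below 1.5-fold without background correction (0.45 and 0.49) and with the authors' normalized values (0.22 for each). In the same contrast 38.3% of all tested probes were called. Whether a single array was an outlier was not tested in groups of 3, and only the effect of leaving out each array is given.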

How the results depend on the processing

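No called value turned its sign under any alternative. Of 90 log2 differences of the tested probes (15 probes in 6 comparisons), 77 kept their side of the threshold without background correction and 75 with the authors' normalized values, and each of the others lost its call. Median scaling kept 79, ended 3 calls and added 8. The counts of called probes were 2 in DoxR-v vs WT, 4 in DoxR vs WT, 4 in WT-v vs WT, 3 in DoxR-v vs DoxR and 2 in DoxR-v vs WT-v. Without background correction they were 0 in DoxR-v vs WT, 1 in DoxR vs WT, 1 in WT-v vs WT and 0 in DoxR-v vs WT-v, with 4 in the interaction, all lower. With the authors' values they were 0 in DoxR-v vs WT, 0 in DoxR vs WT, 1 in WT-v vs WT, 1 in DoxR-v vs DoxR and 0 in DoxR-v vs WT-v, again with 4 in the interaction, all lower. With no fold threshold they were 6 in DoxR-v vs WT, 7 in WT-v vs WT, 5 in DoxR-v vs DoxR and 7 in DoxR-v vs WT-v, since the smaller changes then counted. The counts under these alternatives were not set against the share of all probes called in the same setting, so nothing particular to the set is read from them. In DoxR-v vs WT the count was 4 with median scaling (none shared with the main calls), and 1 with probes detected on at least 3 arrays, with no detection filter, at an adjusted p below 0.05 and with only the groups compared; the cause was not tested. Leaving out 1 array gave 1 to 2 calls in DoxR-v vs WT, 4 to 5 in DoxR vs WT, 4 to 6 in WT-v vs WT, 3 to 3 in DoxR-v vs DoxR, 0 to 4 in DoxR-v vs WT-v and 5 to 7 in the interaction, and 600 of 630 single values kept their side. Without WT replicate 3 the 2 calls in DoxR-v vs WT shared none with the main calls. With the replicate number as a block, 90 of 90 values kept their side and the counts were unchanged at 2, 4, 4, 3 and 2, with 6 in the interaction. The replicate numbers did not pair the samples: deviations of same-numbered arrays correlated between -0.325 and 0.167 over 15 pairs, and 1 pair was above 0.1. The median rank of the brighter MYCN probe was 0.179% of detected probes in DoxR-v, 0.233% in DoxR, 0.129% in WT-v and 0.105% in WT. Leaving out 1 array of the group gave 0.176% to 0.316%, 0.204% to 0.309%, 0.0827% to 0.150% and 0.0619% to 0.233%. Among all probes, detected or not, it was 0.0761% in DoxR and 0.0465% in WT-v, because the denominator is larger. Probes near background, such as those of MYC, MYCL and the dimmer MAX probes, have too little signal over background for their differences to be sized.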
